A study of Mus musculus with 8 samples.

Results

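Complex III, complex IV and ATP synthase carry out the last steps of oxidative phosphorylation in the inner mitochondrial membrane. Complex III passes electrons from ubiquinol to cytochrome c, complex IV passes them on to oxygen, and both move protons out of the matrix. ATP synthase, also called complex V, lets the protons flow back through a rotating membrane ring and uses that rotation to make ATP. Most subunits are encoded in the nucleus and imported, while cytochrome b, 3 complex IV subunits and 2 ATP synthase subunits are encoded by the mitochondrial genome (mtDNA).

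The 38 nuclear genes examined here were taken from a list of gene symbols. They comprised 9 genes of complex III, 12 of complex IV and 17 of ATP synthase, out of 48709 genes in the table of counts. All 38 were found by their Ensembl identifiers and all 38 had enough counts to be tested, with 55 to 13180 reads per gene and tumor. The older symbols of the ATP synthase genes are used.

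RNA was sequenced from 8 mouse lung tumors, 4 labelled *K-Ctrl* and 4 labelled *K-Setd2KO*. Per the study's methods, the mice of both groups carried the same Cre-activated tumor allele on a mixed genetic background, and tumors were started by a lentivirus, given through the trachea, that carried Cre recombinase, Cas9 and a guide RNA. The guide RNA targeted *GFP*, a jellyfish gene, in *K-Ctrl* mice and *Setd2*, the gene for the enzyme that trimethylates histone H3 at lysine 36, in *K-Setd2KO*. The labels give neither the age of the mice nor whether each tumor came from a separate mouse, so p-values measure the spread between these tumors. The study's methods describe sorting of tumor cells for other tumors and none for these. RNA of other cells of the lung was present, as the markers below show.

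The libraries held 5806599 to 21290402 counts, the fewest in *K-Setd2KO* replicate 4. *Setd2* mRNA itself stood at 152.7, 137.8, 132.1 and 137.6 CPM in the *K-Ctrl* and 145.0, 121.3, 123.8 and 152.7 CPM in the *K-Setd2KO* tumors, where CPM is the count of a gene relative to the scaled total of its library. These levels overlap and do not check the labels, since a guide RNA need not change the amount of mRNA. Alveolar type 2 cell markers summed to 46340 to 68820 CPM in the *K-Ctrl* and 55080 to 78780 CPM in the *K-Setd2KO* tumors, with *Sftpc* at a mean of 25160 and 25120 CPM. Of these 9 genes *Sftpb* was called higher (log2FC 1.09) and *Napsa* lower (341 ± 63.2 and 112 ± 63.0 CPM, mean ± SD, 4 tumors each; log2FC −1.60). General epithelial markers summed to 1909 to 2920 and 2610 to 3205 CPM, and 2 of 6 were called higher, *Epcam* (log2FC 0.90) and *Krt18* (log2FC 0.84). Pan-leukocyte markers summed to 551 to 1072 CPM in the *K-Ctrl* and 185 to 254.5 CPM in the *K-Setd2KO* tumors, and 5 of 5 were lower at an adjusted p under 0.05. Of the macrophage markers 4 of 7 were lower (474 to 1447 against 160 to 315 CPM), of the endothelial markers 2 of 6 (476 to 1839 against 187 to 488 CPM), and of the erythroid markers 0 of 4 (144 to 780 against 74.5 to 194 CPM). The T cell list had 1 of 6 genes called lower (44.7 to 108.5 against 6.74 to 34.7 CPM) and the fibroblast list 1 of 5 (496 to 1120 against 141 to 582.5 CPM). Of all genes tested 7.74% were called lower and 4.97% higher. The neutrophil list, with 0 of 5 called, reached 42.5 and 56.0 CPM in *K-Setd2KO* replicates 1 and 4 against 15.9 to 20.3 CPM in *K-Ctrl*. The part of this in the differences below was not tested, and in bulk RNA fewer cells of a type and less RNA per cell cannot be told apart.

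To determine how the single subunits differed between the genotypes, an edgeR quasi-likelihood test was fitted on all 14929 genes with enough counts, and a gene is called where its p, adjusted over all of them, is under 0.05. In *K-Setd2KO* tumors *Atp5g3*, which encodes the c subunit of the rotating ring, and *Ndufa4*, a subunit at the edge of complex IV, were higher by 1.43-fold and 1.37-fold, and both rose past the threshold. The other 36 subunits did not pass. With DESeq2, the tool of the study, *Atp5f1*, *Atp5h* and *Atp5j* also passed (DESeq2 Wald test adjusted p 0.0198, 0.0338 and 0.00723), and 1327 of 14929 genes were called higher. With sex in the edgeR fit, or with no filter on counts, neither *Atp5g3* nor *Ndufa4* was called. When each tumor was left out in turn their log2 fold changes stayed at 0.45 to 0.61 for *Atp5g3* and 0.37 to 0.52 for *Ndufa4*. The adjusted p was above 0.05 in most of these smaller fits. *Atp5g3* remained called without *K-Setd2KO* replicate 4 alone (edgeR adjusted p 0.0214 to 0.104), and *Ndufa4* without *K-Setd2KO* replicate 2 alone (0.0370 to 0.127). Across all genes tested 4.97% were called higher and 7.74% lower, so 2 of 38 called higher is close to the background, while 0 of 38 were called lower. At an unadjusted p under 0.05, 8 of 38 subunits were higher and 0 lower, against 13.6% of all genes that were higher at that p. The fitted log2 fold change (log2FC, *K-Setd2KO* over *K-Ctrl*) was above 0 for 35 of 38 subunits, against 52.7% of all genes, and *Cyc1*, *Uqcrc2* and *Cox5a* were below it. It was above 0 for 29 of 38 with a trend on exon length and GC content removed (53.1% of all genes) and for 31 with sex in the fit (51.9%). The subunits were measured in the same 8 tumors, so they are not independent observations of this direction. In 5 of 38 subunits (*Uqcr10*, *Ndufa4*, *Atp5g3*, *Atp5h* and *Atp5j*) all *K-Setd2KO* tumors lay above all *K-Ctrl* tumors, which held for 9.06% of all genes tested.

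**Figure D1:**
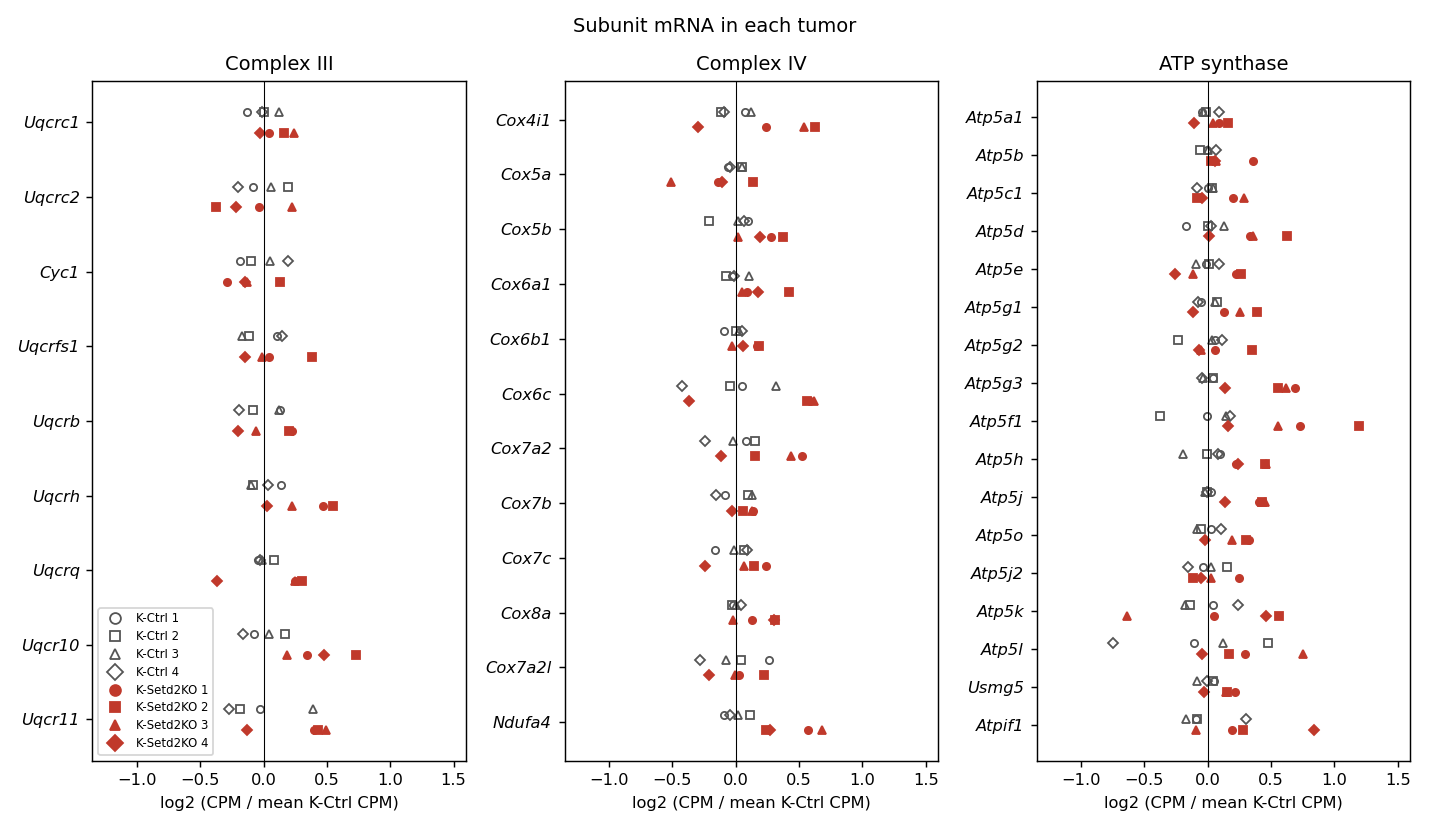
Level of each of the 38 subunit mRNAs in each tumor, as log2 of its CPM over the mean CPM of the *K-Ctrl* tumors, with complex III, complex IV and ATP synthase in separate panels. Open grey symbols are *K-Ctrl* and filled red symbols *K-Setd2KO* tumors, with 1 symbol shape per replicate number, and *K-Setd2KO* replicate 4 (diamond) is the lowest filled symbol in 23 of 38 genes.

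The *K-Setd2KO* tumors differed among themselves more than the controls did. The summed level of the 38 genes was 3695, 3573, 3735 and 3738 CPM in *K-Ctrl*, and 4549, 4746, 4292 and 3780 CPM in the *K-Setd2KO* tumors. These sums are carried by the abundant genes, and replicate 4 was near the controls. For complex III it had 511.9 CPM, below all controls (529.5 to 560.5), and for complex IV 851.1 CPM, among them (825.7 to 936.4). With each gene centred and given equal weight on the log2 scale, the mean of the 38 genes was −0.08 in replicate 4 and −0.12 to −0.06 in *K-Ctrl*, which overlap, and 0.15, 0.22 and 0.09 in replicates 1 to 3. Replicate 4, the library with the fewest counts, was the lowest of its group in 23 of 38 genes, whereas replicate 2 was the highest in 19. Replicate 4 exceeded every control in 11 genes, against 26, 28 and 21 genes for replicates 1, 2 and 3. Without replicate 4, *Atp5g3*, *Atp5f1* and *Atp5j* were called and 14 subunits had an unadjusted p under 0.05, while *Ndufa4*, with a log2FC of 0.51, was not (edgeR adjusted p 0.0546). In that fit 3.35% of all genes were called higher and 13.0% were higher at an unadjusted p under 0.05.

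The promoters of the members on which these results turn are shown next. For 31 of 38 genes a RefSeq promoter was found (build GRCm38.p6, 250 bases before to 50 bases after a start site). The 250 bases before the start are printed for the called genes *Ndufa4* (minus strand, chr6:11907451-11907700) and *Atp5g3* (minus strand, chr2:73911327-73911576), and for *Atp5j* (minus strand, chr16:84834977-84835226, the start that lies inside the gene, of 2 listed), whose neighbour *Gabpa* runs the other way. Capitals mark matches to AAGATGGC, a YY1 motif, and CCGGAAG, a motif of GABP and other ETS factors, on either strand.

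Ndufa4: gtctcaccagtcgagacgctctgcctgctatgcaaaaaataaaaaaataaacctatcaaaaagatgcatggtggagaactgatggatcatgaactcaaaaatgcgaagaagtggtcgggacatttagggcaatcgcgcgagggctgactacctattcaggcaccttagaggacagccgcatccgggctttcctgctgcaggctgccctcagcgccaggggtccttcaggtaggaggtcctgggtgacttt
Atp5g3: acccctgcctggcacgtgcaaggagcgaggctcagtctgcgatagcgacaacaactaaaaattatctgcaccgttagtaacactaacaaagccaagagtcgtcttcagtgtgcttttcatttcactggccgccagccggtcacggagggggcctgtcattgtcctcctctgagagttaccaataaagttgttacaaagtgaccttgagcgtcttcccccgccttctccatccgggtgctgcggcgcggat
Atp5j: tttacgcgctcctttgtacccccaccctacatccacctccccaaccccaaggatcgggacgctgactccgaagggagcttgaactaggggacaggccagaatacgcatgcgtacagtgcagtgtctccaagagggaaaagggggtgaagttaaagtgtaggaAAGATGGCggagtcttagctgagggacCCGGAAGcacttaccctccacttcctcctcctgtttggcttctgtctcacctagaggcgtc

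The promoter of *Atp5j* held a YY1 match that began 88 bases before the start and a GABP match that began 61 bases before it, and the matches do not overlap. The window at its other start, at the end of the annotated gene, held none of the motifs. No match to these letters, or to GCGCATGC, a core of the NRF1 motif, lay in the windows of *Ndufa4* and *Atp5g3*. *Atp5f1* held a YY1 match that began 3 bases before its start. Among the 31 subunit genes with a promoter, 11 held the GABP letters, against 9.93% of 27025 genes with a promoter and 19.0% of those among the genes tested. The NRF1 letters were in 6 of 31, against 3.05% and 5.60%, and the YY1 letters in 3 of 31, all of ATP synthase, against 3.19% and 4.95%. These matches describe the letters only, and binding was not measured.

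Complex III passes electrons through cytochrome b, the Rieske iron-sulfur protein and cytochrome c1, which are held by core proteins and small accessory subunits. None of its 9 genes was called, and the median log2 fold change was 0.11 (0.0714 without *K-Setd2KO* replicate 2), against 0.03 for all genes tested. With the length and GC trend removed it was 0.0373, against 0.0355 for all genes. The core proteins *Uqcrc1* and *Uqcrc2* had log2 fold changes of 0.11 (SE 0.110) and −0.08 (SE 0.154), and the redox subunits *Uqcrfs1*, the Rieske protein, and *Cyc1*, cytochrome c1, had 0.08 (SE 0.143) and −0.10 (SE 0.141). All 4 were within 1 SE of 0. *Cyc1* had −0.36 with the length and GC trend removed (unadjusted p 0.0176, edgeR adjusted p 0.0865), the 1 subunit lower at that unadjusted threshold, and ran from −0.19 without *K-Setd2KO* replicate 2 to −0.03 without *K-Ctrl* replicate 4. *Uqcrfs1* turned to −0.04 without *K-Setd2KO* replicate 2. In the trend fit *Uqcrc1* had 0.04, *Uqcrfs1* 0.0023, *Uqcrb* −0.01 and *Uqcr11* 0.18. The 5 accessory subunits had a median of 0.32, and their values ran from 0.06 to 0.45.

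The accessory subunit *Uqcr10* was at 21.8, 25.9, 23.7 and 20.5 CPM in the *K-Ctrl* and 29.1, 38.2, 26.1 and 32.0 CPM in the *K-Setd2KO* tumors. The groups did not overlap, although the lowest *K-Setd2KO* tumor was close to the highest control. Its log2FC was 0.45 (SE 0.155, edgeR adjusted p 0.0881). The hinge protein gene *Uqcrh*, which helps cytochrome c1 meet cytochrome c, was at 120.6, 103.4, 102.4 and 112.4 CPM in the *K-Ctrl* and 152.2, 160.7, 128.5 and 111.9 CPM in the *K-Setd2KO* tumors. Replicate 4 lay among the controls and the others above them (log2FC 0.34, SE 0.136, edgeR adjusted p 0.135). *Uqcr11* reached 21.5 ± 4.68 and 26.8 ± 4.80 CPM and *Uqcrq* 33.6 ± 1.31 and 36.8 ± 7.24 CPM (mean ± SD, 4 tumors each), which overlap. Per kilobase of exon, *Uqcrb* was the most abundant member of the complex (146 CPM per kb) and *Uqcrc1* the least (16.4 CPM per kb). Exon length here is the sum of all annotated exons, 876 and 4135 bases for these genes. A gene whose transcripts are shorter than this sum can therefore rank too low.

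In complex IV the mtDNA-encoded subunits form the catalytic core and the nuclear subunits surround it. Of its 12 nuclear genes 1 was called, and the median log2 fold change was 0.19. That median was 0.12 without *K-Setd2KO* replicate 2 and 0.0654 with the length and GC trend removed. *Ndufa4* was at 69.5, 80.2, 74.9 and 71.8 CPM in the *K-Ctrl* and 110.2, 87.6, 119.1 and 89.5 CPM in the *K-Setd2KO* tumors, so that replicates 1 and 3 stood out and replicates 2 and 4 were just above the controls. Its log2FC was 0.46 (SE 0.130, edgeR adjusted p 0.0495). *Ndufa4* was first assigned to complex I and is now counted with complex IV.

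*Ndufa4* (ENSMUSG00000029632.7, chromosome 6, 11900292 to 11907497, minus strand, protein-coding) is the 1 subunit gene of the 38 on chromosome 6, where many genes were higher. The median log2 fold change of 839 genes tested on chromosome 6 was 0.27, and 15.4% of them were called higher. Against the control mean, the chromosome 6 median was 0.33, −0.03, 0.33 and 0.38 on the log2 scale in *K-Setd2KO* replicates 1 to 4, and −0.04 to 0.02 in *K-Ctrl*. *Ndufa4* was at 0.57, 0.24, 0.69 and 0.27 in the same *K-Setd2KO* tumors. In replicate 2, where the chromosome did not stand out, *Ndufa4* was the lowest of its group, and in replicate 4 it stood below its chromosome. Less the chromosome median, the log2 fold change of *Ndufa4* was 0.19. The part of the chromosome in the value of *Ndufa4* was not tested. *Ndufa4l2*, a related gene known to respond to low oxygen, was scarce, with 4.68, 1.26, 1.80 and 1.43 CPM in the *K-Ctrl* and 1.64, 1.53, 0.738 and 0.342 CPM in the *K-Setd2KO* tumors. Its groups overlapped (log2FC −1.04, SE 0.585, edgeR adjusted p 0.266).

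**Figure D2:**
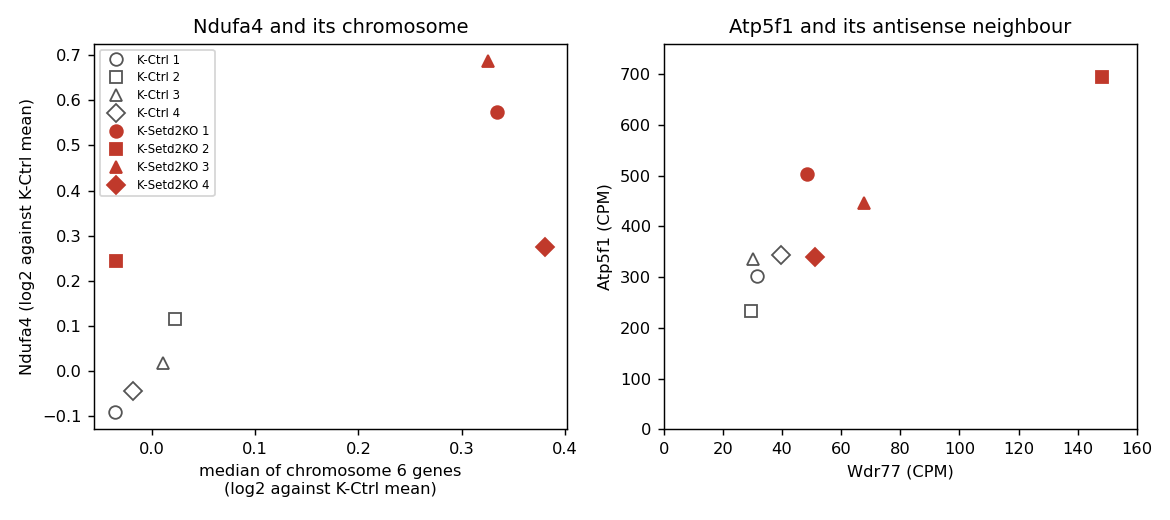
Left, level of *Ndufa4* against the median of the 839 chromosome 6 genes in each tumor, both as log2 against the *K-Ctrl* mean. Right, CPM of *Atp5f1* against CPM of *Wdr77*, an overlapping gene on the opposite strand, with open grey symbols for *K-Ctrl* and filled red symbols for *K-Setd2KO* tumors in both panels; replicate 2 of *K-Setd2KO* is at the top right at 148.2 and 695 CPM.

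The other complex IV genes did not pass the test. *Cox6c* had the next highest log2FC (0.40, SE 0.235, edgeR adjusted p 0.282), with 110.4, 103.2, 133.3 and 79.5 CPM in the *K-Ctrl* and 159.8, 157.9, 163.8 and 82.7 CPM in the *K-Setd2KO* tumors. Replicates 1 to 3 were close together and above all controls, and replicate 4 was near the lowest control. *Cox4i1*, the largest nuclear subunit and a site of regulation by ATP, showed a like order, with 214.0, 280.6, 264.0 and 148.0 CPM in the *K-Setd2KO* tumors against 167.0 to 196.8 CPM in *K-Ctrl* (log2FC 0.32, SE 0.191). *Cox5b* had the second smallest p of the complex (log2FC 0.22, SE 0.121, edgeR adjusted p 0.255). *Cox7a2*, *Cox6a1* and *Cox8a* had log2 fold changes of 0.27, 0.19 and 0.19, and *Cox6b1*, *Cox7b* and *Cox7c* of 0.10, 0.08 and 0.07. *Cox7a2* had 0.18 without *K-Setd2KO* replicate 1, and *Cox6a1* 0.10, *Cox6b1* 0.06 and *Cox4i1* 0.20 without replicate 2. With the length and GC trend removed *Cox4i1* had 0.19, *Cox5b* 0.11, *Cox7b* 0.02, *Cox6b1* 0.0089, *Cox6a1* −0.01 and *Cox7c* −0.03. *Cox5a* was the lowest, at 36.1 ± 1.51 CPM in the *K-Ctrl* and 32.8 ± 5.88 CPM in the *K-Setd2KO* tumors (mean ± SD, 4 tumors each; log2FC −0.14, SE 0.149), and its log2FC was −0.03 without *K-Setd2KO* replicate 3, −0.25 without replicate 2 and −0.29 with sex in the fit. *Cox7a2l*, which links complexes III and IV into supercomplexes, was at 84.0 ± 13.3 and 85.0 ± 10.5 CPM (log2FC 0.02, SE 0.145). Its processed copy *Gm6969* held 3114 counts over all tumors against 9446 for *Cox7a2l*, so reads of these near-identical sequences may be split. Per kilobase, *Cox6b1* and *Cox4i1* were highest (127.3 and 117.0 CPM per kb in *K-Ctrl*, 136.3 and 146.2 in *K-Setd2KO*). *Cox6c* and *Cox7c* were lowest (34.7 and 35.3 CPM per kb), with *Cox6c* the lower in *K-Ctrl* (29.9 and 34.5) and *Cox7c* in *K-Setd2KO* (39.5 and 36.1). The annotated exons of *Cox6c* sum to 3567 bases, and its rank depends on that length.

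ATP synthase has a catalytic head (F1), a central stalk that turns inside it, a ring of c subunits (Fo) that turns the stalk, and a peripheral stalk that keeps the head from turning. All 17 of its genes had a fitted log2 fold change above 0, and 1 was called. *Atp5e* and *Atp5g2* were below 0 with the length and GC trend removed, and *Atp5e*, *Atp5j2* and *Atp5k* with sex in the fit. The catalytic head had the lowest median of the parts of ATP synthase, 0.0905, close to the central stalk at 0.0975. This order depends on the fit. With sex in the fit the head genes *Atp5a1* and *Atp5b* had 0.05 and 0.13. The membrane genes *Atp5l*, *Atp5k*, *Usmg5* and *Atp5j2* had 0.31, −0.08, 0.12 and −0.02 there, with the lower median. *Atp5a1*, the alpha subunit, was at 476.9 ± 21.2 CPM in the *K-Ctrl* and 492.9 ± 37.9 CPM in the *K-Setd2KO* tumors (mean ± SD, 4 tumors each; log2FC 0.05, SE 0.114). *Atp5b*, the catalytic beta subunit, was at 527.7 ± 19.1 and 578.7 ± 65.7 CPM (log2FC 0.13, SE 0.123), and its log2FC was 0.05 without *K-Setd2KO* replicate 1. Per kilobase *Atp5a1* was the most abundant gene of the complex (154.7 CPM per kb). In the central stalk, *Atp5c1* and *Atp5e* had log2 fold changes of 0.10 and 0.05, and *Atp5d*, the delta subunit, reached 42.1, 47.5, 51.9 and 48.3 CPM in the *K-Ctrl* and 59.7, 73.2, 60.7 and 47.8 CPM in the *K-Setd2KO* tumors. Replicate 4 lay within the controls (log2FC 0.35, SE 0.145, edgeR adjusted p 0.144).

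Subunit c is encoded by 3 genes, *Atp5g1*, *Atp5g2* and *Atp5g3*, whose mature proteins are identical. *Atp5g3* (ENSMUSG00000018770.9, chromosome 2, 73908447 to 73911326, minus strand, protein-coding) was at 112.2, 112.0, 105.9 and 105.2 CPM in the *K-Ctrl* and 175.1, 159.6, 166.8 and 119.3 CPM in the *K-Setd2KO* tumors. The controls lay close together, replicates 1 to 3 of *K-Setd2KO* were far above them and replicate 4 slightly so. Its log2FC was 0.51 (SE 0.132, edgeR adjusted p 0.0360). It overlaps no other gene, has no pseudogene copy by the criteria used, and the median of its chromosome was 0.03. *Atp5g1* was at 16.3 ± 0.886 and 18.4 ± 2.69 CPM and *Atp5g2* at 19.4 ± 1.98 and 20.6 ± 2.92 CPM (mean ± SD, 4 tumors each; log2FC 0.18 and 0.08, SE 0.153 and 0.155), with overlap in both.

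The share of the 3 genes in subunit c mRNA was computed from counts divided by exon length, the sum of all annotated exons. That length was 4912, 1675 and 2181 bases for *Atp5g1*, *Atp5g2* and *Atp5g3*. A transcript can be shorter than this sum, so the size of a share depends on it. *Atp5g3* made up 77.1%, 79.3%, 75.9% and 75.4% in the *K-Ctrl* and 83.6%, 79.3%, 83.5% and 79.5% in the *K-Setd2KO* tumors. Replicate 2 of *K-Setd2KO* was just under the highest control and the rest were above it (difference 4.50 points, two-sided exact permutation p 0.0571, adjusted p 0.133 over 7 shares). *Atp5g1* made up 5.13% ± 0.325 and 4.32% ± 0.397, without overlap (mean ± SD, 4 tumors each; exact permutation p 0.0286, the smallest that 4 against 4 tumors allow, adjusted p 0.133). *Atp5g2* was at 17.9% ± 1.88 and 14.2% ± 2.10 (exact permutation p 0.0857, adjusted p 0.150). No share passed after adjustment, and these shares sum to 100%, so they do not vary freely.

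**Figure D3:**
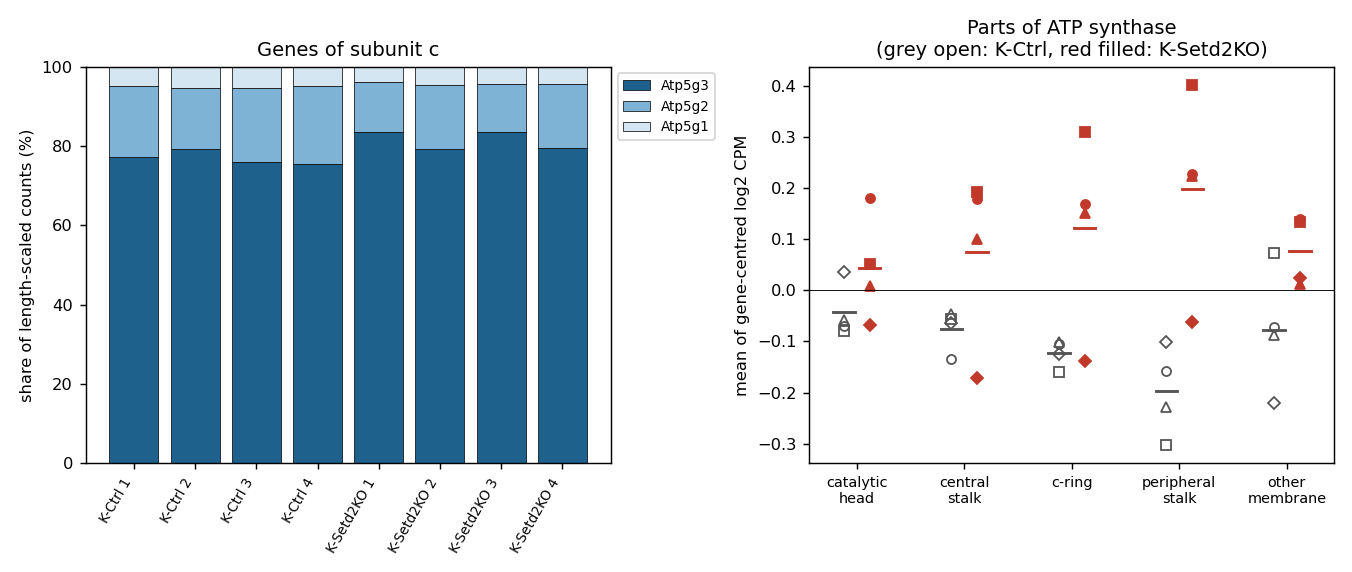
Left, share of *Atp5g1*, *Atp5g2* and *Atp5g3* in the length-scaled counts of subunit c in each tumor, in percent; the *Atp5g3* share lies between 75.4% and 83.6%. Right, mean over the genes of each ATP synthase part of log2 CPM after centring each gene, per tumor, with horizontal lines for group means and 1 symbol shape per replicate number; the means lie farthest apart in the peripheral stalk.

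With no trend removed, the peripheral stalk had the highest median of the parts of ATP synthase. Its 4 genes had log2 fold changes of 0.71, 0.35, 0.36 and 0.21 (*Atp5f1*, *Atp5h*, *Atp5j* and *Atp5o*), with a median of 0.36 against 0.13 for the other 13 genes of ATP synthase. With the length and GC trend removed these 4 had 0.78, 0.29, 0.37 and 0.19. The membrane genes *Atp5l*, *Usmg5*, *Atp5k* and *Atp5j2* then had 0.58, 0.61, 0.09 and 0.01, and their median was slightly above that of the stalk. *Atp5f1*, subunit b, was at 302.4, 233.3, 335.4 and 343.5 CPM in the *K-Ctrl* and 503.6, 695.4, 446.2 and 339.1 CPM in the *K-Setd2KO* tumors, so that replicate 4 was just under the highest control. Its log2 fold change of 0.71 was the highest of the 38 but had a wide error (SE 0.224, edgeR adjusted p 0.0684). The ratio of *Atp5f1* to *Atp5a1* CPM was 0.655, 0.493, 0.721 and 0.676 in the *K-Ctrl* and 0.995, 1.31, 0.909 and 0.767 in *K-Setd2KO*, each above all controls. Against *Atp5b*, the other head subunit, the ratio was 0.576, 0.462, 0.634 and 0.623 in the *K-Ctrl* and 0.744, 1.29, 0.810 and 0.617 in the *K-Setd2KO* tumors, where replicate 4 lay among the controls.

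*Atp5f1* (ENSMUSG00000000563.17, chromosome 3, 105942698 to 105960099, minus strand, protein-coding) shares 337 of its 4105 exon bases in GENCODE M21 with *Wdr77*, a subunit of an arginine methyltransferase complex, on the opposite strand. *Wdr77* was at 31.4, 29.3, 30.0 and 39.7 CPM in the *K-Ctrl* and 48.4, 148.2, 67.8 and 51.2 CPM in the *K-Setd2KO* tumors (log2FC 1.28, SE 0.348, edgeR adjusted p 0.0442). Replicate 2 was the highest in both genes. *Atp5f1* also has a processed copy, *Gm12231*, with 243 counts against 44515. The library kit keeps the strand of the RNA, but whether counting used it is not stated, so its part in the value of *Atp5f1* was not tested.

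*Atp5j*, coupling factor 6, had the tightest controls, with 104.2, 102.2, 101.0 and 102.2 CPM in the *K-Ctrl* and 135.8, 137.8, 140.4 and 112.4 CPM in the *K-Setd2KO* tumors. Each *K-Setd2KO* tumor was above each control, and replicate 4 lay between the groups (log2FC 0.36, SE 0.105, edgeR adjusted p 0.0523). It overlaps *Gabpa* on the other strand by 397 of 3130 exon bases, and *Gabpa* was at 80.3 ± 4.51 and 83.1 ± 12.1 CPM (mean ± SD, 4 tumors each; log2FC 0.05, SE 0.125). *Atp5h*, subunit d, reached 116.5, 108.2, 95.2 and 115.4 CPM in the *K-Ctrl* and 126.7, 149.2, 149.6 and 128.5 CPM in the *K-Setd2KO* tumors without overlap (log2FC 0.35, SE 0.115, edgeR adjusted p 0.0771). *Atp5o*, the subunit that joins the stalk to the head, had 72.8 ± 4.23 and 84.0 ± 8.74 CPM (mean ± SD, 4 tumors each; log2FC 0.21, SE 0.113). The row of *Atp5o* spans 91684398 to 91931687 on chromosome 16 and covers other genes, so its value is less certain.

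Of the 4 small membrane subunits, *Atp5l* had a log2 fold change of 0.32 (SE 0.284), *Atp5k* of 0.18 (SE 0.245), *Usmg5* of 0.12 (SE 0.105) and *Atp5j2* of 0.03 (SE 0.122), the lowest of the complex. With the length and GC trend removed *Atp5l* and *Usmg5*, the shortest genes of the complex, had 0.58 and 0.61, *Atp5k* 0.09 and, in the central stalk, *Atp5d* 0.20. When each tumor was left out in turn, *Atp5k* ran from 0.01 without *K-Setd2KO* replicate 2 to 0.37 without replicate 3, and *Atp5l* from 0.15 without *K-Ctrl* replicate 4 to 0.52 without *K-Ctrl* replicate 2. *Atp5l* had the fewest counts of the 38 genes and 8 pseudogene copies with 285 counts against its 1210, so its level is uncertain. *Atpif1* encodes the inhibitor that stops ATP synthase from running backwards. It was at 128.7, 129.6, 122.0 and 169.4 CPM in the *K-Ctrl* and 157.0, 166.4, 128.7 and 246.1 CPM in the *K-Setd2KO* tumors, and its highest value in each group was in replicate 4, unlike most subunits. Its log2FC was 0.34 (SE 0.203, edgeR adjusted p 0.288), and 0.13 without *K-Setd2KO* replicate 4.

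**Figure D4:**
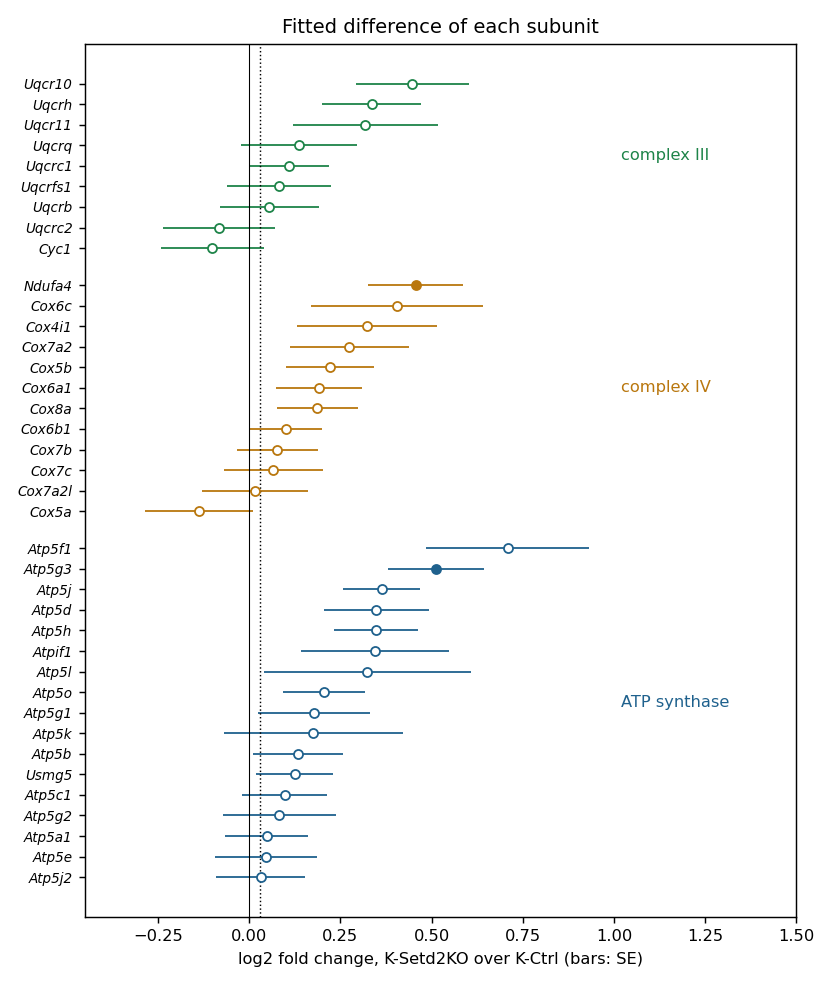
Fitted log2 fold change of each subunit, *K-Setd2KO* over *K-Ctrl*, with bars of 1 standard error, grouped by complex and ordered by value. Filled points are the called genes, *Ndufa4* and *Atp5g3*, the solid line marks 0 and the dotted line the median of all genes tested, 0.03.

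To see how the nuclear subunits stood to their mtDNA-encoded partners, those genes were examined in the same fit. None of the 6 was called, and none had an unadjusted p under 0.05. *mt-Cytb* was at 6917 ± 1513 CPM in the *K-Ctrl* and 6703 ± 1163 CPM in the *K-Setd2KO* tumors, and *mt-Co1* at 12540 ± 1846 and 12060 ± 1590 CPM (mean ± SD, 4 tumors each; log2FC −0.05 and −0.06, SE 0.205 and 0.176). The log2 ratio of summed nuclear to mtDNA-encoded CPM of complex IV was −4.06, −3.62, −3.74 and −3.85 in the *K-Ctrl* and −3.21, −3.48, −3.47 and −4.00 in *K-Setd2KO*, a difference of 0.28 in which replicate 4 lay within the controls, and which was 0.16 without *K-Setd2KO* replicate 1 and 0.43 without replicate 4. It was larger than the SD of the controls, 0.189, and smaller than that of the *K-Setd2KO* tumors, 0.332. The alternative by mean log2 CPM, 0.16, gives *mt-Co2* and *mt-Co3* the same weight as *mt-Co1*. For complex III the difference was 0.16 (control mean −3.64 ± 0.313 and *K-Setd2KO* mean −3.47 ± 0.180, mean ± SD, 4 tumors each), smaller than the spread.

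The counts of *mt-Co2*, *mt-Co3*, *mt-Atp6* and *mt-Atp8* were far lower than those of *mt-Co1*, at 3.70 to 17.7, 1.72 to 8.91, 2.00 to 12.4 and 0.154 to 2.02 CPM. The transcripts of *mt-Co2*, *mt-Co3* and *mt-Atp6* matched nuclear pseudogenes on chromosome 1 (*Gm28661*, *Gm28437* and *Gm10925*) at 100% identity over 681, 783 and 678 bases, and those rows held 604, 347 and 1149 counts over all tumors. A read that fits both places equally cannot be assigned to 1 of them, and how such reads were counted is not stated. No such copy was found for *mt-Atp8*, which had 84 counts in all. The rows of these 4 genes are not read as their levels, and no ratio was formed for ATP synthase.

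**Figure D5:**
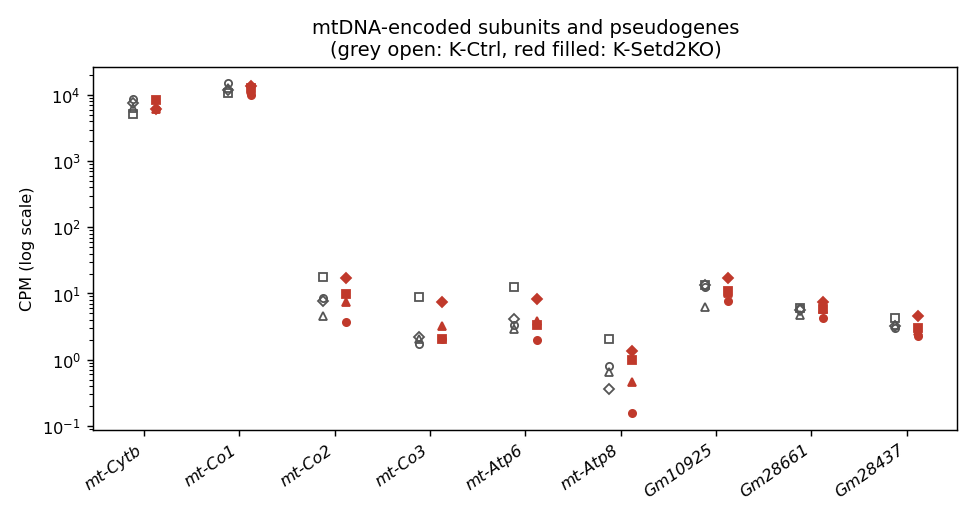
CPM on a log axis of the 6 mtDNA-encoded subunits and of 3 nuclear pseudogenes in each tumor, with open grey symbols for *K-Ctrl* and filled red symbols for *K-Setd2KO*. *mt-Cytb* and *mt-Co1* lie at 5170 CPM or above, and the other rows lie below 18 CPM.

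Some complex IV subunits have a second gene used in heart, muscle, lung or testis. *Cox4i2*, the lung form of *Cox4i1*, made up 8.62% ± 1.94 of the pair in the *K-Ctrl* and 8.79% ± 2.82 in *K-Setd2KO* (mean ± SD, 4 tumors each; exact permutation p 0.943, adjusted p 0.943). *Cox6a2*, a muscle form, made up 15.5% to 37.6% and 7.65% to 35.6% (exact permutation p 0.514, adjusted p 0.720), with the highest share in replicate 4 of *K-Ctrl* and replicate 2 of *K-Setd2KO*. The heart myosin gene *Myh6* was highest in the same tumors (249.0 and 216.8 CPM), while *Tnnt2*, *Myl7* and *Actc1*, also cardiac markers, stood at 0.994, 0.0765 and 0 CPM in that *K-Setd2KO* tumor, the lowest or joint lowest of its group. *Cox7a1* made up 3.30% ± 1.29 and 3.21% ± 1.74 (exact permutation p 0.886, adjusted p 0.943) and *Ndufa4l2* 4.29% ± 3.06 and 1.496% ± 0.923 of its sum with *Ndufa4* (mean ± SD, 4 tumors each; exact permutation p 0.0571, adjusted p 0.133). The testis form *Cox6b2* was at 3.24 ± 1.30 and 1.44 ± 0.659 CPM (log2FC −1.17, SE 0.440, edgeR adjusted p 0.112). *Cox7b2* and *Cox8c* had 0 counts in all 8 tumors, which allows up to 0.513 CPM in the shallowest library, and *Cox8b* had at most 6 counts in a tumor.

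The other genes of the pathway were examined as lists. Of 36 complex I genes, which pass electrons from NADH, 3 were called higher and 0 lower (*Ndufv3*, *Ndufa5* and *Ndufb10*, with log2 fold changes of 0.58, 0.45 and 0.55), against 4.97% of all genes called higher and 7.74% lower, and 0 of the 4 complex II genes were called in either direction. Of 7 tested genes for cytochrome c, the phosphate and adenine nucleotide carriers and the porins, 0 were called, and *Slc25a4* had the smallest p (log2FC 0.31, SE 0.131, edgeR adjusted p 0.148). Of 9 genes that shape the cristae, the folds in which ATP synthase sits, 2 were called higher, against 4.97% of all genes. *2410015M20Rik*, a subunit of the MICOS complex that holds cristae junctions, rose from 28.0 ± 3.68 to 43.3 ± 5.51 CPM and *Chchd6*, also of MICOS, from 5.08 ± 0.903 to 10.1 ± 3.12 CPM (mean ± SD, 4 tumors each; log2FC 0.63 and 0.98, SE 0.147 and 0.266, edgeR adjusted p 0.0261 and 0.0421). *Chchd6*, *Immt* and *Chchd3* lie on chromosome 6, and the median of the list was 0.31 with these 3 genes and 0.16 without them. *Ndufa5* also lies there, and the 33 complex I genes elsewhere had a median of 0.16.

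By expression of *Xist* and Y-linked genes, *K-Ctrl* replicate 2 and *K-Setd2KO* replicates 1, 2 and 4 were female, so sex and genotype were partly confounded. With sex as a term in the fit 0 of 38 subunits were called, against 3.03% of all genes called higher, and *Ndufa4* and *Atp5g3* had log2 fold changes of 0.49 and 0.53 (edgeR adjusted p 0.0823 and 0.0771). Within male tumors (3 *K-Ctrl* and 1 *K-Setd2KO*) the median difference of the 38 genes was 0.17 and within female tumors (1 and 3) it was 0.21, with 27 and 28 genes above 0. For *Ndufa4* the differences were 0.73 and 0.25 and for *Atp5g3* 0.63 and 0.41. The labels give no sequencing batch.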

How the data were processed

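The authors deposited 1 table of raw counts per gene for 8 lung tumors, with exon lengths and no normalization; total counts of 5806599 to 21290402 set the precision. The processing notes in the labels name STAR 2.5.2b, featureCounts 1.5.0-p1 and GRCm38.p4, and the annotation release and strand setting are not given in the sources used here. The extraction text speaks of cell lines and the design text of tumors. Symbols came from GENCODE M21, in which 48349 of 48709 identifiers were found; 20284 genes had 0 counts throughout. Coordinates are 1-based, from the table.

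Genotypes were compared in R 4.3.3 with edgeR 4.0.16 (filterByExpr, TMM, robust quasi-likelihood test, Benjamini-Hochberg adjustment over 14929 genes, threshold 0.05), checked on simulated counts. CPM used TMM-scaled library sizes, and log2 CPM a prior count of 2. Standard errors were derived from the log2 fold change and its F statistic. Shares used exact permutation over 70 assignments. Pseudogene copies were matches of at least 95% over 150 bases. DESeq2 1.42.0, the tool of the study, and other settings were alternatives.

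Genes named were those called, the 3 smallest p and the extreme log2 fold changes and levels of each complex, the subunit c genes, *Cox7a2*, *Cox7a2l*, *Ndufa4*, *Atpif1*, mtDNA partners, tissue isoforms, and called or smallest-p genes of the other lists; further genes were named after their values were seen. The members and lists were chosen with earlier results of these data known. The allele that both groups share is not reported here.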

Additional observations from a re-analysis of the deposited data

Results flagged for a closer look

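Tumors that stood apart from the other 3 of their group were looked for in 116 groups of 4 values, by the gap to the nearest tumor against the range of the group. Such a tumor was found 11 times, where chance gives 5.8.

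Among the subunits, *K-Setd2KO* replicate 4 was apart in *Uqcrq* at 26.0 CPM (others 39.9 to 41.5), in *Cox6c* at 82.7 CPM (others 157.9 to 163.8) and in *Atp5j* at 112.4 CPM (others 135.8 to 140.4). It was the low value each time, and it is the library with the fewest counts. *K-Setd2KO* replicate 1 was apart in *Atp5b* at 676.9 CPM (others 538.0 to 550.7), and *K-Ctrl* replicate 4 in *Atpif1* at 169.4 CPM (others 122.0 to 129.6).

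Among the partner genes, *K-Setd2KO* replicate 2 was apart in *mt-Cytb* at 8447 CPM (others 6104 to 6146) and in *Cox6a2* at 37.8 CPM (others 4.79 to 9.97). *K-Ctrl* replicate 2 was apart in *mt-Co3* at 8.91 CPM (others 1.72 to 2.23) and in *mt-Atp6* at 12.4 CPM (others 2.86 to 4.11), rows that share their sequence with pseudogenes. *K-Ctrl* replicate 1 was apart in *Ndufa4l2* at 4.68 CPM (others 1.26 to 1.80) and so in its share, at 8.83% (others 2.21% to 3.34%).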

How the results depend on the processing

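The median log2 fold change of each complex was above 0 in every alternative run, but the number of called subunits depended on the setting. DESeq2 called 5 subunits, *Ndufa4* of complex IV and *Atp5g3*, *Atp5f1*, *Atp5h* and *Atp5j* of ATP synthase. It called 1327 of 14929 genes higher, and 3194 in both directions against 1897 with edgeR. Upper-quartile factors (742 of all genes higher) and removal of a trend on exon length and GC content (829) called *Ndufa4*, *Atp5g3* and *Atp5j*. RLE factors (732) called 2. A minimum of 10 counts in every tumor (656 of 12397 genes higher) called *Atp5g3* and 0 of complex IV. No filter (614 of 28425) or a sex term (453 of 14929) called 0. With the trend removed the complex IV median was 0.0654 and 29 of 38 subunits were above 0; within male tumors, an alternative added after seeing the data, the medians of complexes III and IV were 0.25 and 0.0605. Among the named subunits, values reversed for *Uqcrb* (−0.0122, trend removed), *Atp5g2* (−0.0602, trend removed), *Atp5j2* (−0.0021 with at least 10 counts, −0.0206 with sex) and *Cox7a2l* (−0.016 with at least 10 counts, −0.10 with the trend removed, −0.0056 with sex); of all 38, 6 reversed with the trend removed (also *Cox6a1*, *Cox7c* and *Atp5e*), 4 with sex (also *Atp5e* and *Atp5k*) and 2 with at least 10 counts. Without length scaling the *Atp5g3* share differed by 4.53 points (exact permutation p 0.0286) and the *Atp5g1* share by −1.77 points in place of −0.809. Values moved by over 1.5 times in 20 of 38 subunits with the trend removed and in 5 to 18 when 1 tumor was left out, 18 without *K-Setd2KO* replicate 2. The cause of these shifts was not tested.

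The labels do not say whether same-numbered tumors were paired. Deviations of same-numbered tumors correlated at −0.07, −0.03, 0.19 and −0.02. No other pairs were set beside these values, so they cannot show whether such tumors shared a batch. With a replicate block 0 subunits of complexes III, IV and V were called (medians 0.11, 0.18 and 0.17), beside 1341 genes in all, 403 of them higher. In that fit *Ndufa4* had 0.45 (edgeR adjusted p 0.115) and *Atp5g3* 0.50 (0.0739).

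Leaving out each tumor in turn gave 0 to 0 called subunits in complex III, 0 to 1 in complex IV and 0 to 3 in ATP synthase. With any 1 of 6 tumors left out 0 were called, beside 224 to 679 of all genes called higher. *Ndufa4* was called without *K-Setd2KO* replicate 2 (856 of 15086 genes higher), and *Atp5g3*, *Atp5f1* and *Atp5j* without replicate 4 (518 of 15455). The log2 fold changes stayed at 0.37 to 0.52 for *Ndufa4* (edgeR adjusted p 0.0370 to 0.127) and 0.45 to 0.61 for *Atp5g3* (0.0214 to 0.104), and the medians at 0.07 to 0.15, 0.12 to 0.23 and 0.16 to 0.20 in complexes III, IV and V. Values ran from −0.0039 to 0.12 for *Uqcrb*, −0.0464 to 0.0833 for *Atp5j2*, −0.0255 to 0.13 for *Atp5g2* and −0.0649 to 0.11 for *Cox7a2l*; *Uqcrfs1* (−0.04) and *Atp5e* (−0.04) also reversed without *K-Setd2KO* replicate 2, and *Atp5e* (−0.02) without replicate 1. Differences in shares ran from −0.943 to −0.629 points for *Atp5g1*, −4.57 to −3.02 for *Atp5g2*, 3.78 to 5.30 for *Atp5g3*, −0.966 to 1.25 for *Cox4i2*, −11.6 to −0.366 for *Cox6a2*, −0.830 to 0.581 for *Cox7a1* and −3.49 to −1.28 for *Ndufa4l2*, and the nuclear to mtDNA log2 ratio from 0.05 to 0.29 in complex III and 0.16 to 0.43 in complex IV. Depth limits the low genes most, with 3 counts worth 0.138 to 0.513 CPM.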
